A study of Eriocheir sinensis with 6 samples.

Results

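The genes *moody*, *mth2*, *gpr161* and *GRM7* of the Chinese mitten crab (*Eriocheir sinensis*) encode G protein-coupled receptors (GPCRs), and each spreads over more than 30 kb of the genome. They were taken by the gene identifiers that the study gives for these receptors, which it ties to the molting cycle. The deposited table lists 28671 genes, of which they are 4. Muscle of wild-type, untreated crabs in the inter-molt stage, the resting phase between shells, was measured by RNA-seq and by ATAC-seq, a transposase assay of open chromatin. There were 3 libraries per assay, 6 in all, and no other stage or treatment. The crabs were juveniles. Libraries are called crabs 1 to 3 by the number in their titles. By the methods of the study the muscle of each crab was split between both assays, and equal numbers in the titles were taken as the same crab. Peak names in the third ATAC list carry another number, so for crab 3 this rests on the sample record. The files pair no muscle, nerve or glia marker with a gene identifier, so the tissue label could not be checked against marker genes.

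A GPCR sits in the cell membrane, binds a signal outside the cell and activates a G protein inside it. These 4 do not all come from the same branch of the family. In fruit flies, Moody is a rhodopsin-type receptor of the surface glia that seal the blood-brain barrier. Methuselah and its relatives, after which *mth2* is named, are secretin-type receptors linked in flies to lifespan and stress resistance. In vertebrates, Gpr161 is an orphan receptor of the primary cilium that restrains Hedgehog signaling, and metabotropic glutamate receptor 7, the product of *GRM7*, is a presynaptic receptor that lowers transmitter release. None of these roles was measured here, and in bulk muscle fewer cells of a type and less RNA per cell cannot be told apart.

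The study lists a primer pair for quantitative PCR of each of these transcripts, and the pairs are shown because they are the only sequences of these genes used here. All are designed oligonucleotides, printed 5′ to 3′ in lower case.
moody forward: caaaacagggtgcgttgagg
moody reverse: aagccttgccctgtaccttc
mth2 forward: agccaccaggaggggatatt
mth2 reverse: gggaactgtcggtgggattt
gpr161 forward: aaatgccccacactcctacg
gpr161 reverse: ccatacacacaaggggctgt
GRM7 forward: ttgctctctgatctacctgaggat
GRM7 reverse: ttagcctctatcttgatgtcctgc
The primers of *moody*, *mth2* and *gpr161* are 20 bases long with a GC content of 55%, and those of *GRM7* are 24 bases long with 45.8%. Where in each gene model they anneal was not analysed here.

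RNA libraries held 6772294 to 7920094 reads assigned to genes, and ATAC libraries held 49574 to 57320 peaks. The RNA library of crab 3 stood apart: Spearman rho across all genes was 0.924 between crabs 1 and 2 and 0.863 between crab 3 and either of them, where genes are not independent replicates. Its 100 most abundant genes took 69.7% of the reads, against 60.9% in crab 1 and 55.5% in crab 2. Expression is given as FPKM, fragments scaled to the length of the gene model and to the size of the library. The library size behind the deposited FPKM was 1.04, 1.27 and 0.491 times the recovered reads in crabs 1, 2 and 3, so levels are also given on plain read totals, and ratios between genes of the same library are free of that scaling. A further scaling, the median ratio, sets the libraries equal at the median of genes with a read in all 3.

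All 4 genes were long, with gene models that cover at most 13.1% of the span. *moody* (evm.TU.CM024100.1.415) lay on the minus strand of sequence CM024100.1 at 16787866 to 16867427 and spanned 79.6 kb, of which the gene model covers 2125 bases (2.67%). *mth2* (evm.TU.CM024134.1.314) lay on the minus strand of CM024134.1 at 13395350 to 13427538, a span of 32.2 kb with a model of 3892 bases (12.1%). *gpr161* (evm.TU.CM024164.1.176) lay on the plus strand of CM024164.1 at 4971576 to 5026795, a span of 55.2 kb with a model of 5213 bases (9.44%). *GRM7* (evm.TU.CM024146.1.116) lay on the minus strand of CM024146.1 at 5155732 to 5223447, a span of 67.7 kb with a model of 8844 bases (13.1%). All were longer than most genes, as 88.6% of all genes were shorter than *mth2* and 96.9% were shorter than *moody*. Among the 3537 genes spanning at least 30 kb the median model covered 3.13% of the span. *moody* was the sparsest of these receptors and close to that median, while *mth2*, *gpr161* and *GRM7* were all more densely covered than it.

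The receptors ranged over more than 2 orders of magnitude in transcript level. *moody* and *mth2* were well expressed, *gpr161* stood near 1 FPKM, and *GRM7* was close to the limit of detection. Of the 4, 2 reached 1 FPKM in all 3 crabs, against 32.7% of all genes and 37.2% of genes spanning at least 30 kb. Their median was 6.19 FPKM, beside 0.527 FPKM over all genes and 0.879 FPKM over the genes of at least 30 kb. The study selected these genes because their expression changed between molting stages, partly on these libraries. It also required a peak of changed accessibility assigned to the gene. A changing gene needs reads, so nothing is read from this difference.

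*moody* had 23.6, 14.7 and 11.7 FPKM in crabs 1, 2 and 3, from 353, 294 and 97 reads, a mean of 16.7 ± 6.19 FPKM (SD, n = 3). Crab 1 was highest and crab 3 lowest, and the order was the same on plain read totals, where the values were 24.5, 18.7 and 5.76 FPKM. The highest crab was 2.01 times the lowest with the deposited scaling, 1.79 times with the median ratio and 4.26 times on plain totals. Without crab 3 the mean was 19.2 FPKM. The level of *moody* exceeded that of 93.6%, 90.6% and 87.6% of all genes in the 3 libraries.

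*mth2* went the other way. Its FPKM was 6.58, 7.20 and 19.7 in crabs 1, 2 and 3, from 180, 264 and 298 reads, a mean of 11.2 ± 7.40 FPKM (SD, n = 3). Crabs 1 and 2 were close together and crab 3 stood far above them, and without crab 3 the mean was 6.89 FPKM. On plain totals the rise in crab 3 nearly vanished, with 6.83, 9.18 and 9.67 FPKM, a range of 1.42 times. With the median ratio it stayed, with 5.44, 5.95 and 18.3 FPKM, a range of 3.36 times. The size of the rise thus depends on the scaling. Its rank among all genes went from 82.2% and 83.3% of genes below it in crabs 1 and 2 to 91.2% in crab 3.

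*gpr161* had 1.39, 1.51 and 0.740 FPKM, from 51, 74 and 15 reads, a mean of 1.21 ± 0.414 FPKM (SD, n = 3). Crabs 1 and 2 lay above 1 FPKM and crab 3 below it, so that without crab 3 a total of 3 receptors reached 1 FPKM in every crab. On plain totals the values were 1.44, 1.92 and 0.363 FPKM, a range of 5.29 times. With the median ratio they were 1.15, 1.24 and 0.688 FPKM, a range of 1.81 times. The 15 reads of crab 3 have a Poisson 95% interval of 8.40 to 24.7, which covers counting error only.

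*GRM7* had 5, 11 and 4 reads, or 0.0804, 0.132 and 0.116 FPKM, a mean of 0.110 ± 0.0265 FPKM (SD, n = 3). The Poisson 95% intervals of 1.62 to 11.7, 5.49 to 19.7 and 1.09 to 10.2 reads overlap. On plain totals the values were 0.0835, 0.168 and 0.0571 FPKM, a range of 2.95 times, with crab 2 highest and crab 3 lowest. With the median ratio the range was 1.64 times, with crab 1 lowest. A count of 0, which allows up to 3 reads, would have meant up to 0.0483, 0.0360 and 0.0873 FPKM for a model of this length. All 3 libraries were above that level, and in crab 3 by a single read.

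**Figure D1:**
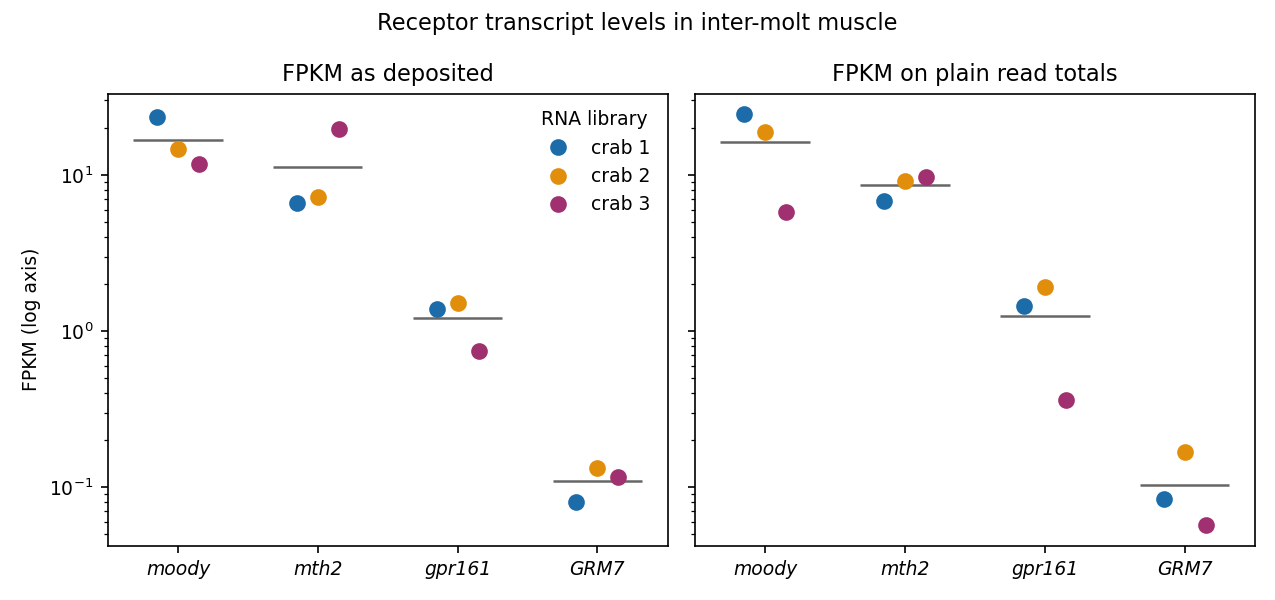
FPKM of the 4 receptor genes (log axis) in each RNA library, as deposited (left) and recomputed on plain read totals (right), with dots for crabs 1 to 3 and a line at the mean. Crab 3 has the highest *mth2* value in both panels and the lowest *moody* and *gpr161* values, and all *GRM7* values lie near 0.1 FPKM.

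Neither *moody* nor *mth2* reached a range of 2 in log2(FPKM + 1) between the highest and the lowest crab. That range was met by 14.4% of the 12319 genes with a mean of at least 1 FPKM. The range of *mth2* was 1.45 and that of *moody* 0.95. The scale understates the change of low genes. *gpr161* and *GRM7* were too low to reach a range of 2 whatever their spread, and *GRM7* is not among those 12319 genes.

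Ratios within a library gave the order of the receptors without any library scaling. *moody* exceeded *mth2* in reads per kilobase by 3.59 times in crab 1 (95% interval 2.99 to 4.32) and by 2.04 times in crab 2 (1.72 to 2.42). In crab 3 the order turned, and *moody* stood at 0.596 times *mth2* (0.469 to 0.752). The 3 intervals, exact for counting error and made from the reads of single libraries, do not overlap. They compare these crabs as single libraries and say nothing of the spread between animals beyond them. The mean log2 ratio was 0.71 ± 1.32 (SD, n = 3), so *moody* and *mth2*, neighbours in the order of levels, did not differ beyond their spread. Without crab 3 the mean log2 ratio was 1.44.

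The other receptors kept their places in each of the 3 libraries. *mth2* stood above *gpr161* by 4.73 times in crab 1 (95% interval 3.45 to 6.58), by 4.78 times in crab 2 (3.68 to 6.27) and by 26.6 times in crab 3 (15.9 to 48.1). The ratio of *moody* to *gpr161* was steadier, at 17.0, 9.75 and 15.9 times, with intervals of 12.6 to 23.2, 7.53 to 12.8 and 9.16 to 29.4 in crabs 1, 2 and 3. Relative to *mth2*, *moody* and *gpr161* thus both stood lower in crab 3 than in the other crabs. *gpr161* exceeded *GRM7* by 17.3, 11.4 and 6.36 times, with wide intervals from the few *GRM7* reads. Of the 6 pairs, 5 had the same order in 3 of 3 libraries. The smallest p that a two-sided exact sign-flip permutation test can give with 3 libraries is 0.25. That value was reached for those 5 pairs (adjusted p = 0.30 over 6 pairs, exact permutation), and for *moody* over *mth2* the exact permutation p was 0.50 (adjusted p = 0.50).

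**Figure D2:**
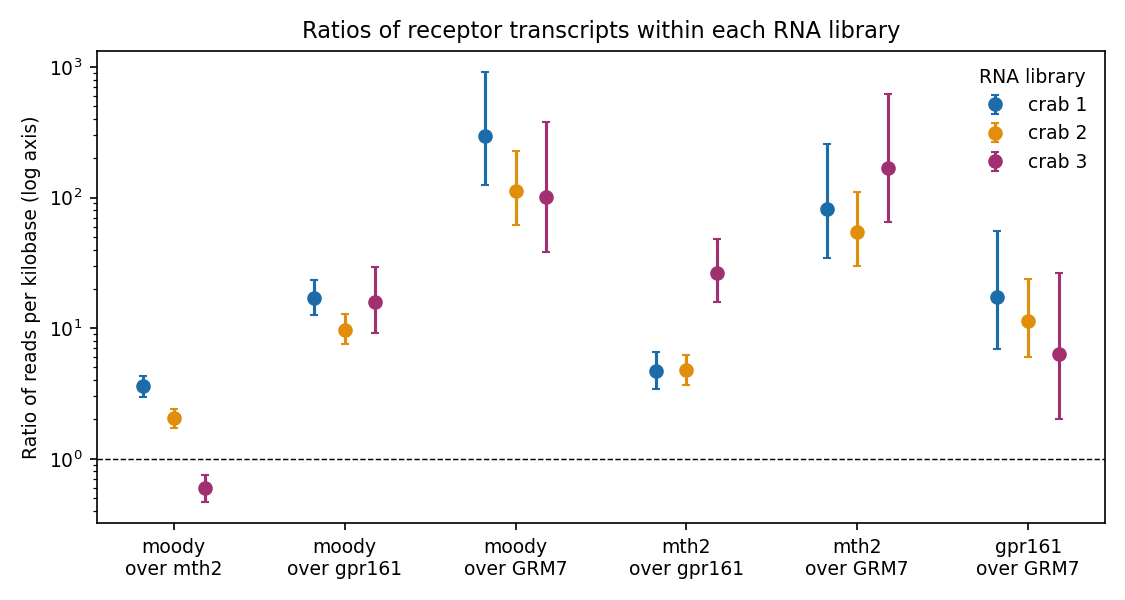
Ratio of reads per kilobase between each pair of receptor genes (log axis) within the RNA library of each crab, with exact 95% intervals for counting error as bars and a dashed line at equal levels. Only *moody* over *mth2* crosses that line, with 3.59 and 2.04 in crabs 1 and 2 and 0.596 in crab 3.

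Accessibility was read from the peaks that the authors called in each ATAC library. Peaks of different libraries that overlapped by at least 1 base were joined to a region, and the height of a peak is its fold enrichment, the pileup of fragments at the summit over the local background. The 4 genes with 50 kb on either side held 52 regions. Of these, 14 (26.9%) were open in every library, 7 (13.5%) carried peaks of 2 libraries and 31 (59.6%) a peak of 1. Over the whole genome these shares were 32.2%, 20.7% and 47.2%. The median fold enrichment was 4.43 for the 14 shared regions and 2.93 for those of 1 library, beside 4.44 and 3.04 over the genome. Crab 2 had the lowest peak in 11 of the 14 shared regions (41.9% over the genome) and crab 3 the highest in 9 (51.0% over the genome). The ATAC library of crab 2 had the fewest peaks in all, 49574, and its lower heights here go with that. Whether this set the heights was not tested.

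Promoter peaks differed between the receptors, though their counts were near the background. The promoter was the transcription start site (TSS) at the end of the gene model with 2 kb on either side. It held a peak in all 3 libraries for *moody* alone, in crabs 1 and 3 for *mth2* and in none for *gpr161* and *GRM7*. A peak in all 3 libraries was found at 23.0% of all promoters and at 28.3% of those of genes spanning at least 30 kb, and a peak in at least 1 library at 45.6% of the latter, so that 1 and 2 of 4 are near the background. Without crab 2 the count with a peak in every library was 2, and with peaks of −log10 q of at least 5 only it was 0. Inside the gene, 2 of the 4 held at least 1 region open in all 3 libraries, against 50.3% of genes of at least 30 kb. An assigned peak of changed accessibility was part of how the study chose these genes, partly on these ATAC libraries. The background genes were not chosen that way, so nothing is read from these comparisons.

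*moody* was the most accessible locus. Inside the gene lay 17 regions, 5 of them open in all 3 libraries, or 6.28 shared regions per 100 kb. That density was above that of 90.4% of genes spanning at least 30 kb, whose median was 0.352 per 100 kb, and 7.66% of those genes held 5 or more shared regions. Those genes, unlike *moody*, were not chosen for an assigned peak, so this rank is descriptive only. Shared regions crowded at the 5′ end, with 4 of the 5 within 15 kb of the TSS. The promoter region, at 16867222 to 16868071 on CM024100.1, had fold enrichments of 4.17, 2.64 and 4.30 in crabs 1, 2 and 3. Its peak in crab 2 was weak, with a −log10 q of 1.72 against 6.71 and 7.05.

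The strongest shared region inside *moody* was not the promoter but lay 11.2 kb into the gene, at 16856099 to 16856973, with fold enrichments of 6.63, 4.77 and 8.90 and a mean of 6.77 ± 2.07 (SD, n = 3). Its −log10 q was 34.2, 12.6 and 59.1, so it was far from the calling limit in every library. Next to it, at 16854794 to 16855843, a second region had 4.60, 3.52 and 3.53. A region 5.07 kb into the gene, at 16862121 to 16862537, had 5.33, 3.58 and 5.22. The remaining shared region stood alone 33.6 kb into the gene, at 16833744 to 16834048, with 3.94, 3.33 and 3.92, the most even heights of the 5.

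Most of the other regions inside *moody* were open in single libraries, 11 in all. A broad region 64.4 kb into the gene, at 16802530 to 16803555, had a peak in crab 2 (4.14) and a much higher one in crab 3 (7.63, −log10 q of 33.2), and none in crab 1. Crab 3 alone had 3 further peaks side by side at 35.1, 35.8 and 37.4 kb, with fold enrichments of 3.66, 4.08 and 5.02 and −log10 q of 8.24, 10.9 and 17.4. These calls were of higher significance than the *moody* promoter peak in the same library, whose −log10 q was 7.05. Crab 3 had the fewest *moody* reads, and a link between the assays was not tested. The other 8 regions of 1 library were 3 in crab 1, at 20.1, 21.1 and 67.4 kb, 3 in crab 2, at 40.8, 52.4 and 54.4 kb, and 2 in crab 3, at 5.64 and 54.0 kb. Their fold enrichments ran from 2.34 to 4.13.

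Upstream of *moody* no gene lay within 50 kb, and the nearest, evm.TU.CM024100.1.416, began 143.0 kb away with a mean of 0.671 FPKM. This gene-free stretch nevertheless held 2 regions open in all 3 libraries. The stronger lay 24.9 kb before the TSS, at 16891634 to 16892597, with fold enrichments of 7.94, 4.87 and 8.25 and a mean of 7.02 ± 1.87 (SD, n = 3). That mean was above the mean of any region inside the gene, but in crab 3 the region 11.2 kb into the gene was higher, at 8.90. The other shared region upstream lay 44.1 kb before the TSS, at 16910968 to 16912154, with 3.69, 3.37 and 5.38. Crabs 1 and 3 also shared regions at 26.5 and 31.9 kb, with 2.18 and 2.24 at the first and 4.10 and 4.77 at the second. Without crab 2, a total of 4 flanking regions was therefore open in every library. Single peaks upstream were found in crab 1 at 5.43 and 41.9 kb, in crab 3 at 19.0 kb and in crab 2 at 45.0 kb.

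Downstream of *moody* the sequence was quiet in both assays. Its 50 kb held 1 peak, of 2.46 in crab 1, at 16782359 to 16782558. The 3 gene models there, evm.TU.CM024100.1.412 to evm.TU.CM024100.1.414, had 1 read between them, and none had a promoter peak in any library.

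The *mth2* gene itself was nearly bare of peaks. Within its 32.2 kb only the TSS itself was open, in a narrow region at 13427461 to 13427728 on CM024134.1 whose summit lay 34 bases before the TSS. The fold enrichment there was 4.25 in crab 1 and 5.35 in crab 3, with −log10 q of 6.63 and 9.91, and no peak was listed in crab 2. Without crab 2 the gene held 1 shared region in place of 0. Crab 2 had more *mth2* reads relative to its library than crab 1, at 9.18 against 6.83 FPKM on plain totals. A link between the assays was not tested. Upstream, a strong peak of 6.24 stood in crab 3 alone, 15.3 kb before the TSS, at 13442712 to 13443035. Further out, a region at 13471310 to 13471589 was open in crabs 1 and 2 (5.58 and 4.44), and crab 2 had a peak of 3.17 at 42.0 kb. No peak was called in the rest of the 50 kb.

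Downstream of *mth2* lay the most abundant neighbours of the 4 loci. The gene evm.TU.CM024134.1.313 began 4.19 kb past the 3′ end of *mth2* on the same strand and had 26.0, 42.0 and 56.2 FPKM in crabs 1, 2 and 3. Next came evm.TU.CM024134.1.312 on the opposite strand, with 38.1, 48.6 and 62.6 FPKM. They were the only genes in these flanks with a mean of at least 10 FPKM, and both were highest in crab 3 with the deposited scaling, as was *mth2*. On plain totals crab 2 was highest in both, with 53.6 FPKM for the first and 62.0 FPKM for the second. Within a library, *mth2* stood at 0.253, 0.171 and 0.350 times evm.TU.CM024134.1.313 in reads per kilobase in crabs 1, 2 and 3, so that its share relative to this neighbour was largest in crab 3.

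The promoter of evm.TU.CM024134.1.312 had a peak in all 3 libraries, but its TSS, at 13291580, lies beyond the 50 kb. The promoter of evm.TU.CM024134.1.313 had none in any. The downstream regions within 50 kb all lay inside evm.TU.CM024134.1.312. The only region open in all 3 libraries was at 13361109 to 13361585, with low and even fold enrichments of 3.04, 2.70 and 2.90. Without crab 3, which lacked the upstream region of crabs 1 and 2, the flanks held 2. The other 3 were single peaks, at 13370316 to 13370558 (5.06, crab 3), 13375957 to 13376353 (2.66, crab 3) and 13377303 to 13377520 (2.38, crab 1). Upstream, evm.TU.CM024134.1.315 was the next gene, 61.1 kb away, at 0.946, 2.20 and 0.622 FPKM.

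**Figure D3:**
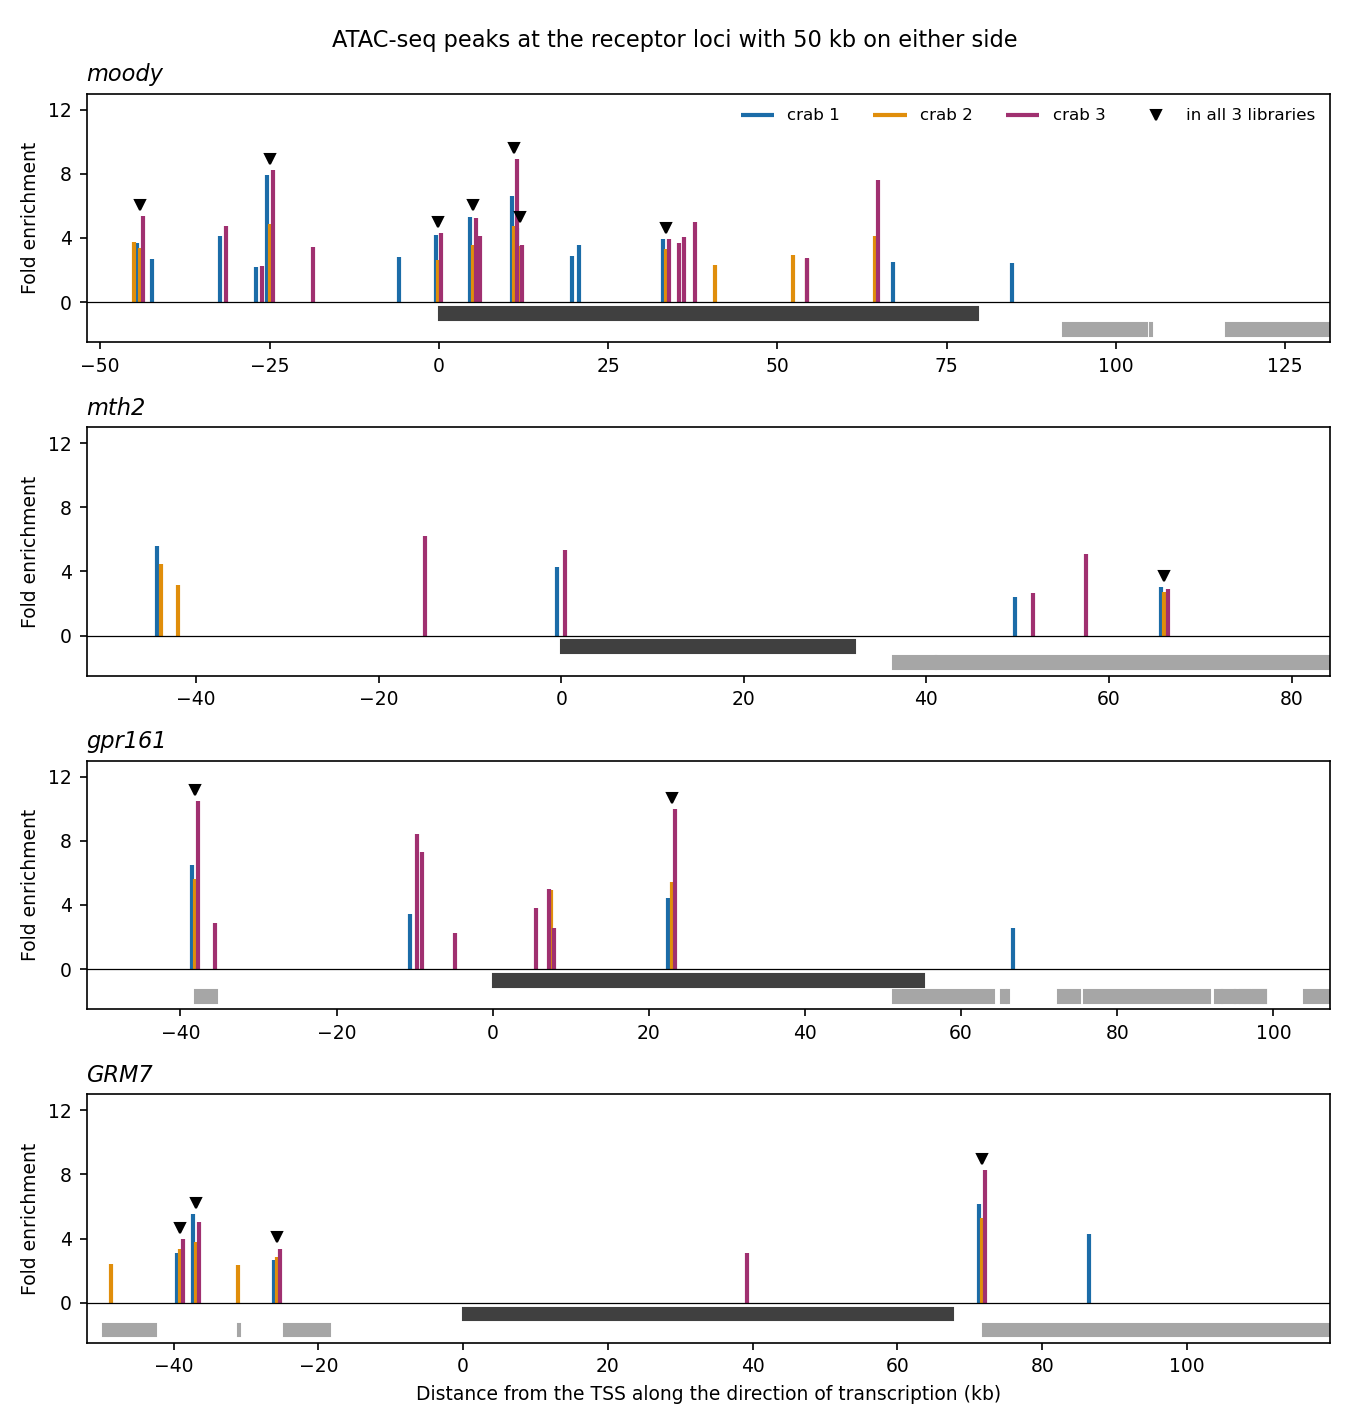
Peaks at the 4 loci by distance from the TSS (kb, positive into the gene), with fold enrichment as height and 1 colour per ATAC library, drawn at the strongest summit of each region and moved slightly sideways to keep the libraries apart. Triangles mark regions with a peak in all 3 libraries, dark bars the receptor gene and grey bars other gene models. *moody* holds 5 triangles inside the gene, *gpr161* holds 1, and *mth2* and *GRM7* hold 0.

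*gpr161* had its open chromatin away from its start. No peak had its summit within 5 kb of the TSS in any library, and the gene held 4 regions, 1 of them shared by all 3 libraries. That density, 1.81 shared regions per 100 kb, was above that of 62.5% of genes spanning at least 30 kb. The shared region lay 22.9 kb into the gene, at 4994333 to 4994649 on CM024164.1, with fold enrichments of 4.46, 5.41 and 9.97 and a mean of 6.61 ± 2.95 (SD, n = 3). The ATAC library of crab 3 had the highest peak there, with a −log10 q of 39.6 against 7.33 and 9.81. The RNA library of crab 3 had the fewest *gpr161* reads, and a link between the assays was not tested. Nearer to the TSS lay a region of crabs 2 and 3 at 7.48 kb (4.96 and 2.60) and single peaks of crab 3 at 5.17 kb (3.80) and 6.80 kb (5.02). Without crab 1 the gene held 2 shared regions.

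In the flanks of *gpr161*, too, the highest peaks were those of crab 3. The only flanking region open in all 3 libraries lay 38.1 kb before the TSS, at 4933239 to 4933814, with 6.48, 5.63 and 10.5, and a mean of 7.53 ± 2.59 (SD, n = 3). It overlapped the promoter of a locus without an evm identifier, at 4933401 to 4936253, with 2, 3 and 0 reads, and its summit was 71 bases from that TSS. A region 10.1 kb before the TSS of *gpr161*, at 4961128 to 4961622, had 3.44 in crab 1 and 8.44 in crab 3, with no peak in crab 2. Without crab 2 the flanks thus held 2 shared regions. Crab 3 alone had peaks of 7.31 at 9.41 kb, 2.28 at 5.21 kb and 2.89 at 35.9 kb upstream. Downstream there was 1 peak, of 2.56 in crab 1, at 5038523 to 5038965.

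The 50 kb around *gpr161* were the most crowded with gene models, at 12, but 6 of these had no read in any library. The 3′ end of *gpr161* overlapped evm.TU.CM024164.1.177, on the opposite strand, by 3983 bases. That gene had 14, 13 and 12 reads, or 0.778, 0.539 and 1.21 FPKM. The use of strand in counting was not stated, so reads of the overlap cannot be told apart between the pair, and the level of *gpr161* is uncertain to that extent. Past the 3′ end, evm.TU.CM024164.1.178 was the next gene, 9.87 kb away and without a read. Only 2 neighbours had a mean of at least 1 FPKM, and the higher, evm.TU.CM024164.1.181, had 2.50 ± 1.66 FPKM (SD, n = 3).

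*GRM7* was the most closed of the 4 genes. Its 67.7 kb held a single peak, of crab 3 alone, 38.8 kb from the TSS at 5184525 to 5184725 on CM024146.1, with a fold enrichment of 3.12 and a −log10 q of 2.88. Crabs 1 and 2 had none. Having no shared region was common, as 49.7% of genes spanning at least 30 kb had none, and *mth2* shared this. In transcript level, *mth2* stood at 81.8, 54.5 and 169 times *GRM7* in crabs 1, 2 and 3. Unlike *GRM7*, *mth2* had a peak at its TSS in crabs 1 and 3, and a link between the assays was not tested.

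In contrast to the gene, the flanks of *GRM7* held 4 shared regions. The highest lay at 5151374 to 5152405, past the 3′ end, with 6.14, 5.29 and 8.27 and a mean of 6.57 ± 1.53 (SD, n = 3). Its summit was 61 bases from the TSS of the next gene, evm.TU.CM024146.1.115, which lay 4.06 kb downstream on the same strand and had 11.9, 8.13 and 2.38 FPKM. Upstream, the region at 5248425 to 5249314 had 2.69, 2.86 and 3.38 and overlapped the promoter of evm.TU.CM024146.1.117, the next gene, 18.4 kb away, with 0.782, 1.60 and 0.566 FPKM. The other pair of shared regions lay between genes, at 5259794 to 5260619 (5.50, 3.80 and 5.06) and 5262392 to 5262886 (3.07, 3.36 and 3.97). Their summits were 5542 and 3412 bases from the nearest TSS, that of evm.TU.CM024146.1.120, and 36.9 and 39.1 kb from that of *GRM7*. Single peaks were found in crab 2 at 5254401 to 5254686 and 5271874 to 5272133, with 2.34 and 2.43, and in crab 1 at 5136451 to 5136656, with 4.25.

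Of the 8 shared regions outside the receptor genes in all 4 flanks, 3 lay in the promoter of another gene, 1 at *gpr161* and 2 at *GRM7*. Of the 22 neighbours reaching within 50 kb, 4 had a promoter open in every library, as did 23.0% of all genes. The promoter of 1 of these 4, evm.TU.CM024134.1.312, lay beyond the 50 kb. No read in any library was found for 9 of the 22, against 29.2% of all genes.

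**Figure D4:**
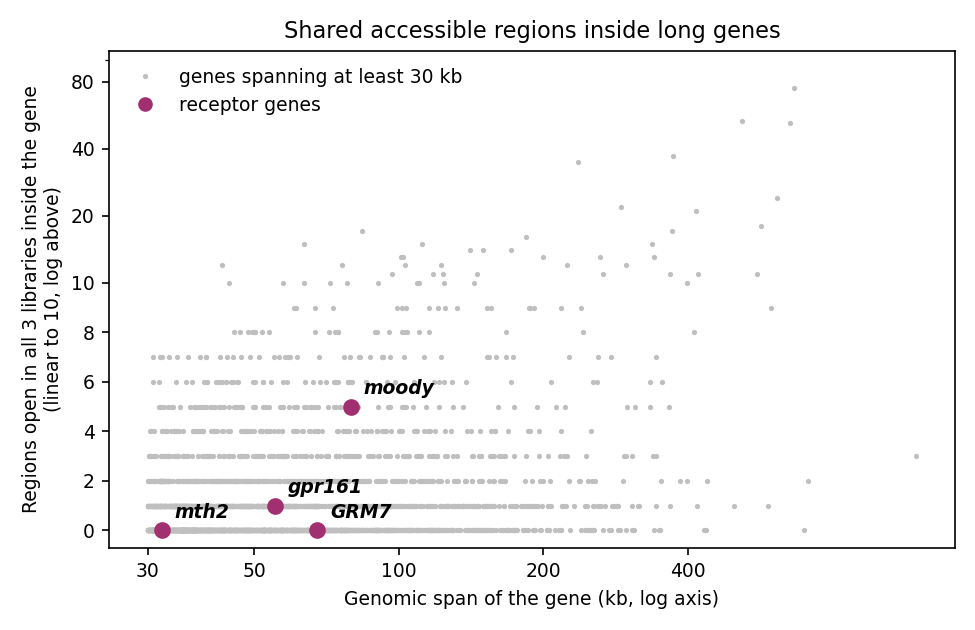
Number of regions open in all 3 libraries inside each gene against its genomic span (kb, log axis) for the 3537 genes spanning at least 30 kb (grey) and the 4 receptor genes (large dots). *moody* has 5 shared regions and *gpr161* 1, while *mth2* and *GRM7* lie at 0 with 49.7% of these genes.

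The study placed 8 genes in GPCR signaling when it compared post-molt with inter-molt muscle, and the receptors described here are 4 of them. It chose that list partly on these libraries, by changes in both expression and accessibility. Of the 8, 4 reached 1 FPKM in all 3 crabs, against 32.7% of all genes, and 3 had a promoter open in every library, as did 23.0% of all genes. The other 4 include *FMRFaR* (evm.TU.CM024127.1.244), the receptor of FMRFamide neuropeptides, which had 4.10, 4.42 and 3.09 FPKM and no peak inside the gene. The study did not carry the remaining 3 forward as receptors. Of these, evm.TU.CM024125.1.103 was the most abundant gene of the list, with 31.4, 15.2 and 27.1 FPKM. Like *moody* it spanned a long stretch (48.9 kb) with 4 shared regions inside and a promoter open in all 3 libraries. The gene evm.TU.CM024099.1.306 had 0.927, 0.889 and 0.527 FPKM and an open promoter in all 3. The gene evm.TU.CM024097.1.36 had no read in any library, which allows up to 0.362, 0.270 and 0.654 FPKM.

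The gene nearest to each receptor in level over the 3 RNA libraries was found by the smallest distance in log2(FPKM + 1) among all genes. For *mth2* it was evm.TU.CM024134.1.320, at a distance of 0.06, with 6.47, 7.31 and 20.6 FPKM. It lies on the same sequence as *mth2*, at 13579242 to 13590284, 151.7 kb upstream of it, and its promoter was open in all 3 libraries. For *moody* it was evm.TU.CM024119.1.435, at 0.07, with 23.9, 15.2 and 11.3 FPKM and likewise an open promoter. For *gpr161* it was evm.TU.CM024142.1.429, at 0.04, and for *GRM7* a locus without an evm identifier on CM024137.1, at 0.02, neither with a promoter peak in all 3 libraries. Within 0.1 of *moody* lay 1 gene, of *mth2* 3, of *gpr161* 11 and of *GRM7* 53, where the scale is compressed for low genes.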

How the data were processed

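Muscle of 3 crabs was measured by RNA-seq and ATAC-seq, and samples were grouped by assay from their titles. For RNA-seq the authors aligned trimmed reads with HISAT2 (2.0.5, per the submitters' processing notes) and counted uniquely mapped reads per gene with featureCounts (1.5.0-p3). The authors divided by gene model length and library size and deposited FPKM. FPKM times gene length was a whole multiple of 1 step per library for 100% of values (within 1% of the count), which gave the reads. No count model was fitted. For ATAC-seq the authors aligned reads with BWA and called peaks per library with MACS2, keeping duplicates. Fold enrichment (a ratio), score (10 times −log10 q), −log10 p and −log10 q of each summit are their deposited values, and the lowest −log10 q listed was 1.30. Whether positions were shifted for the transposase, the ATAC read depth, and the genome build name are not given in the sources used here. The peak names within the third list carry a number other than 3, so its crab rests on the sample record. Peaks with several summits were taken once, with the highest fold enrichment and with starts counted from 1.

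Genes named were the receptors, the next gene on either side, flanking genes with a mean of at least 10 FPKM or a promoter region open in all 3 libraries, the GPCR list of the study and the gene nearest in level. Further flanking genes (evm.TU.CM024100.1.412, evm.TU.CM024164.1.177, evm.TU.CM024164.1.181 and evm.TU.CM024146.1.120) were named after their values were seen. All genes and lists were chosen with earlier results of these data known. The RefSeq table of the species matched 0 identifiers, so neighbours have no names. Ratio intervals are Clopper-Pearson and read intervals Poisson, at 95%, for counting error only, and 3 reads were taken as the limit of a count of 0. Alternatives covered scaling, thresholds, overlap and leaving out each library. Read recovery and region joining were tested on simulated data. Tools were numpy 2.4.6, pandas 2.3.3, scipy 1.17.1 and matplotlib 3.10.9 under python 3.11.15.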

Additional observations from a re-analysis of the deposited data

How the results depend on the processing

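Of 118 recomputed values, 102 kept their direction or size and none reversed. All 36 pair ratios kept their direction and all 20 mean levels stayed within 1 SD, while 46 of 62 counts stayed within 1.5 times. Much of this was fixed in advance. Scaling cannot change a ratio within a library. Leaving out a library, or adding 1 FPKM to both genes, cannot turn an order held in all 3 libraries, so only *moody* over *mth2* could have turned. Leaving out 1 of 3 libraries cannot move a mean by 1 SD, so only the other scalings tested the mean levels. The counts of shared regions moved most, and the depth behind the peak calls is unknown. With peaks of −log10 q of at least 5 only, 2 shared regions were found inside *moody*, 1 in its flanks, 0 in the flanks of *mth2*, 2 in those of *GRM7*, and 0 receptor promoters were open in all 3 libraries. With flanks of 25 kb the shared regions numbered 1 for *moody*, 0 for *mth2*, 0 for *gpr161* and 2 for *GRM7*, and with 100 kb *mth2* had 4. Leaving out each ATAC library in turn asks for a peak in 2 libraries only, a looser rule that favours rises. It gave 5 to 6 inside *moody*, 3 to 4 in its flanks, 0 to 1 inside *mth2* and 1 to 2 in its flanks. It gave 1 to 2 inside *gpr161*, 1 to 2 in its flanks, and 1 to 2 open promoters. The flanks of *GRM7* fell from 4 to 3 without crab 3, whose peak had joined peaks of crabs 1 and 2 that did not overlap each other. Leaving out each RNA library gave a mean log2 ratio of *moody* over *mth2* of 0.14 to 1.44. No paired analysis was possible because there is 1 stage and no groups to compare: the crabs pair an RNA with an ATAC library, and no result tests one assay against the other. An overlap of 50% of the shorter peak and promoters of 1 or 3 kb moved no count by over 1.5 times.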
